A study of Mus musculus with 4 samples.

Results

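Keratins are the intermediate filament proteins of epithelial cells, and keratin-associated proteins are the small matrix proteins that embed hair keratin filaments in the shaft. All probe sets that the platform annotation assigned to exactly 1 gene were searched for symbols made of Krt and a number, with an optional letter, or starting with Krtap. This gave 96 of 19938 genes, 52 keratins and 44 keratin-associated proteins, each with 1 probe set. They were measured in cells sorted from mouse skin at postnatal day 5 as dermal papilla. The papilla is a mesenchymal cluster enclosed by the follicle's epithelium and is not itself a keratin-producing tissue. The sort took cells positive for a Sox2-linked green fluorescent protein and for integrin alpha 9, so the reporter was carried by both groups, which were heterozygous for Sox2 (Het, 2 arrays) or carried a conditional Sox2 knockout (cKO, 2 arrays). The arrays of a group are called biological replicates in their titles. The sources used here do not name the Cre driver, the strain or the number of animals behind an array.

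Each keratin filament is built from a type I and a type II keratin, which pair in fixed combinations that mark epithelial compartments. Krt5 and Krt14 pair in basal keratinocytes and the outer root sheath, Krt1 and Krt10 in the suprabasal epidermis, Krt71 with Krt25, Krt27 and Krt28 in the inner root sheath, and Krt8 with Krt18 in simple epithelia and Merkel cells. Hair keratins such as Krt31, Krt33a, Krt33b and Krt35 are made by the cells of the hair shaft, which rise from the matrix that surrounds the papilla. The value of a probe set is a log2 signal relative to the median of its 4 arrays, so it gives differences between arrays and no expression level. A keratin near 0 in every array can be silent or steady, and its detection, or that of the papilla markers, could not be checked. Where both Het arrays are the extremes, this centring places the cKO arrays symmetrically around 0. In bulk RNA, fewer cells of a type and less RNA per cell cannot be told apart.

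The members form clusters in the genome of the gene table used for names (GRCm38.p6). Of the 96 genes, 42 lie on chromosome 11, 25 on chromosome 15, 21 on chromosome 16, 5 on chromosome 7 and 3 on chromosome 10. Among the keratins, 27 lie on chromosome 11 and 25 on chromosome 15, and the type I gene Krt18 lies on chromosome 15 beside its type II partner Krt8. Windows from 250 bases before to 50 bases after the start of transcription, from RefSeq on GRCm38.p6, were found for 76 of the 96 members. Those of the following 4 genes are shown because they carried the widest spread in the inner root sheath and basal classes (Krt25, Krt5), an inner root sheath partner (Krt71) and the one member that differed by at least 1.5-fold between the groups (Krtap8-1). They lie on the minus strand at chr15:101712856-101713155 (Krt5), chr11:99322902-99323201 (Krt25), chr15:101743048-101743347 (Krt71) and chr16:89487903-89488202 (Krtap8-1). Capitals mark 2 motifs, the core promoter box TATAAA in the sense direction and, on either strand, the motif AGATAA of the GATA family of factors.
Krt5: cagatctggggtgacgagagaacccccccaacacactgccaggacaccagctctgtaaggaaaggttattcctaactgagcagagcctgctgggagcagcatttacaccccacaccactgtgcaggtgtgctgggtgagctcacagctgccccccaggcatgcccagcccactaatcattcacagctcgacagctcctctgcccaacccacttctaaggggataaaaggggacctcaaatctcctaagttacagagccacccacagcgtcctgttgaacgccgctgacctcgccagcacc
Krt25: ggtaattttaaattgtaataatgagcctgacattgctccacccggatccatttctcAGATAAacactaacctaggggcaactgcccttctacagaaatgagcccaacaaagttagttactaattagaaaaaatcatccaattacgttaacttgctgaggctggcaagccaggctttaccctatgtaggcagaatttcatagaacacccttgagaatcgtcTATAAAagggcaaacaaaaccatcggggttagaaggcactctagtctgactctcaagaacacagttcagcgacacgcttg
Krt71: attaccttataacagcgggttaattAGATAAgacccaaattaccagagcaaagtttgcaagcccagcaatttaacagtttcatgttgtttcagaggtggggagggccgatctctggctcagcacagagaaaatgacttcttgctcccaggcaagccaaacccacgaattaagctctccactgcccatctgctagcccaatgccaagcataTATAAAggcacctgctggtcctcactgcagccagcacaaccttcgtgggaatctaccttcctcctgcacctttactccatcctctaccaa
Krtap8-1: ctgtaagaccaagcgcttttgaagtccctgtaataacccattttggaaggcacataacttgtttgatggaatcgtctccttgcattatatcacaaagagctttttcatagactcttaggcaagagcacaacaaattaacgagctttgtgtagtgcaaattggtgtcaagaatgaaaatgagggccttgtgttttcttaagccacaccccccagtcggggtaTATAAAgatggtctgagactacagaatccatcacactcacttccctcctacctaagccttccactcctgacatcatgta

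The core promoter box began 30 bases before the start in Krt25, 40 in Krt71 and 29 in Krtap8-1, and the motif of the GATA family 194 bases before it in Krt25 and 225 in Krt71. Over the 77 windows of members, 63.6% held TATAAA (45.9% of 37 keratin windows and 80.0% of 40 keratin-associated protein windows), against 8.32% of all 32851 windows. AGATAA was in 24.7% of the members' windows and 11.2% of all. Searched on both strands, the LEF/TCF motif CTTTGA was in 29.9% against 16.0% and the AP-2 motif GCCNNNGGC in 10.4% against 16.6%. The AP-2 motif was in 18.9% of the keratin windows but 2.5% of the keratin-associated protein windows. Letters of different motifs could overlap within a window, and a match is a description of the sequence, not a bound site.

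Across the 4 arrays, Het replicate 2 was the one most often highest for the members, though not in every class. It was the highest array for 44 of the 96 members (45.8%), against 21.2% of all genes. Het replicate 1 was the highest for 8 members, cKO replicate 1 for 18 and cKO replicate 2 for 26, against 25.4%, 22.3% and 31.1% of all genes. Het replicate 1 was the lowest array for 45 members, against 28.1% of all genes. Of the 44, 21 were keratin-associated proteins, 8 other keratins, 6 inner root sheath and 4 basal or outer root sheath keratins. The rest were 3 of 5 suprabasal and 2 of 13 hair shaft keratins, with 0 of the 5 keratins of simple epithelia and Merkel cells. At a size of 1.5-fold or more (0.58 on the log2 scale), 7 members were higher in Het replicate 2 than in Het replicate 1, against 0.241% of all genes, and 0 were that much lower, against 1.22% of all genes. These 7 were Krt5, Krt14 and Krt15 of the basal class and Krt25, Krt27, Krt71 and Krt73 of the inner root sheath.

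**Figure D1:**
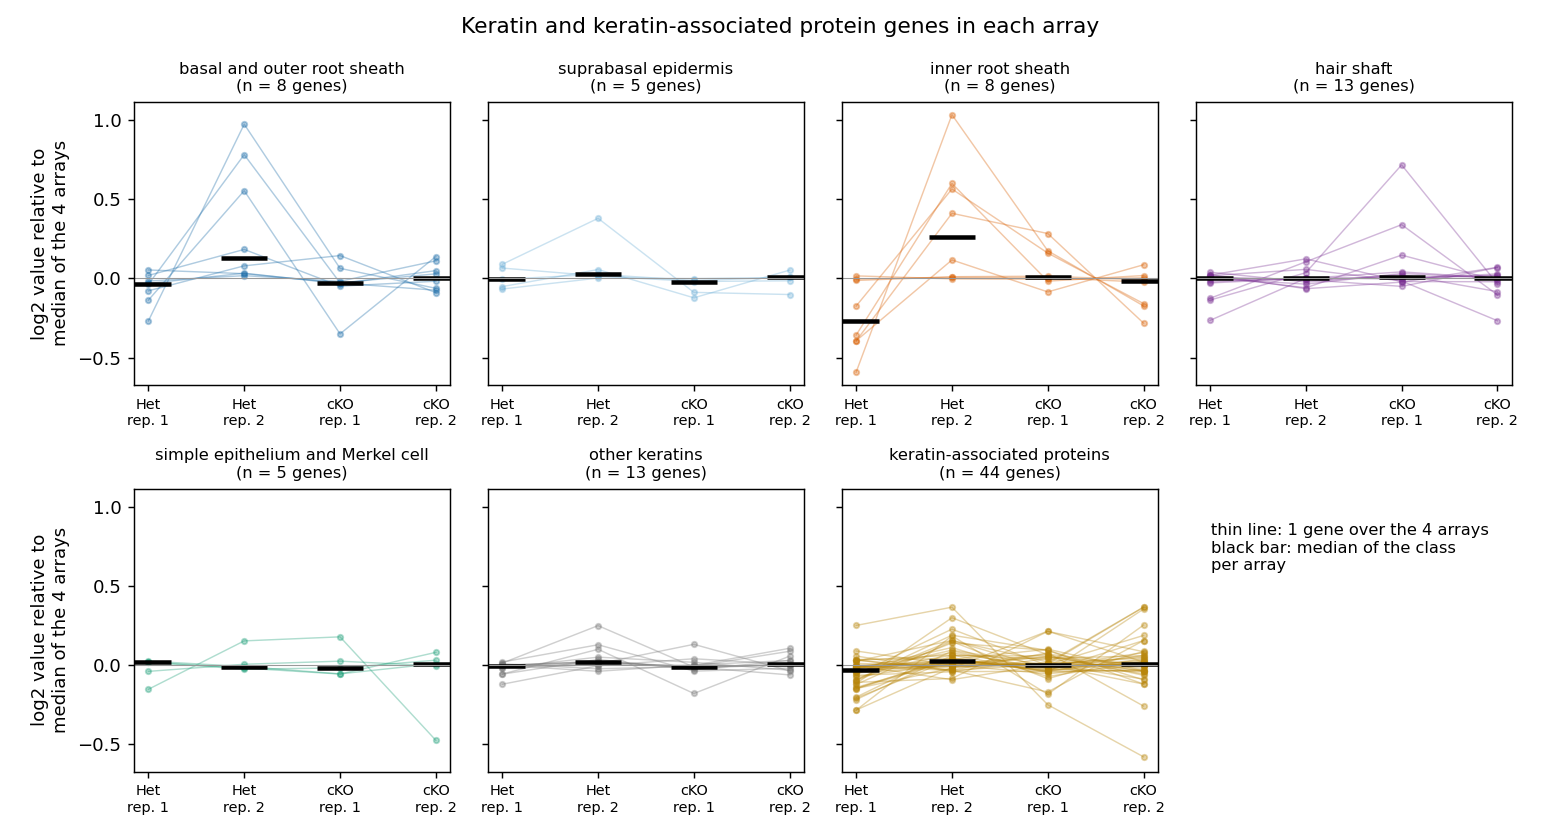
Log2 values relative to the median of the 4 arrays (y axis) in the Het and cKO arrays (x axis) for 7 classes of genes, with a thin line per gene and a black bar at the class median. The inner root sheath median is -0.27 for Het replicate 1 but 0.26 for Het replicate 2, while the hair shaft medians stay near 0.

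Basal and outer root sheath keratins (8 genes) had medians of -0.04 and 0.13 in Het replicates 1 and 2 and of -0.03 and 0.01 in cKO replicates 1 and 2. Krt5, the type II keratin of basal keratinocytes, stood at -0.27 (Het replicate 1), 0.97 (Het replicate 2), 0.06 (cKO replicate 1) and -0.06 (cKO replicate 2), the order kept from here on. Het replicate 2 was thus 2.37-fold above Het replicate 1, and both cKO arrays lay between them. Its partner Krt14 stood at -0.14 and 0.55 in Het and at -0.35 and 0.14 in cKO. Krt15, a keratin of basal cells and of the hair follicle bulge, stood at -0.04 and 0.78 in Het and at -0.03 and 0.03 in cKO. For these 3 genes 1 Het array stood above the other 3 arrays, and the groups overlapped.

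The differences between the groups, cKO minus Het, were -0.35 ± 0.47 (SE, n = 2 arrays per group) for Krt5, -0.31 ± 0.32 for Krt14 and -0.37 ± 0.31 for Krt15, each smaller than or close to its error. They rested on Het replicate 2: without it they were 0.27, 0.03 and 0.04, and without Het replicate 1 they were -0.97, -0.66 and -0.78. The difference of Krt14 rested on cKO replicate 1 as well, its lowest array, and was -0.07 without it. Krt17, a keratin of the outer root sheath and of activated keratinocytes, was at 0.02 and 0.18 in Het and at -0.05 and -0.02 in cKO, with groups that did not overlap and a difference of -0.13 ± 0.07. Krt75, the keratin of the companion layer, also had separate groups, at 0.05 and 0.03 against -0.03 and -0.08, a difference of -0.09 ± 0.04. Krt6a and Krt16, a pair induced in stressed and wounded epithelium, differed by 0.03 ± 0.11 and 0.01 ± 0.05, and Krt6b by 0.05 ± 0.06, all with overlapping groups. The farthest of these 3 genes from 0 was Krt6a, at 0.14 in cKO replicate 1.

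Suprabasal keratins (5 genes) spread little apart from Krt10. Krt10, the type I keratin of differentiating epidermis, stood at 0.09 and 0.38 in Het and at -0.09 and -0.10 in cKO. The groups did not overlap, and the difference of -0.33 ± 0.11 did not pass limma's test over all genes (adjusted p = 0.937); without Het replicate 2 it was -0.18. Its partner Krt1 had overlapping groups, at -0.05 and 0.06 in Het and -0.12 and 0.05 in cKO, with a difference of -0.04 ± 0.08. Krt77 differed by -0.06 ± 0.04, Krt2 by -0.01 ± 0.04 and the palm and sole keratin Krt9 by 0.03 ± 0.04. The range over the 4 arrays was under 0.1 for 3 of the 5 genes, against 36.0% of all genes.

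Inner root sheath keratins (8 genes) had the widest spread of the classes, with a median range over the 4 arrays of 0.62, against 0.14 for all members and 0.14 for all genes. The Het medians of the class were -0.27 and 0.26, and the cKO medians 0.01 and -0.02. Krt25, a type I keratin of this sheath, stood at -0.59 and 1.03 in Het and at 0.17 and -0.17 in cKO, so that Het replicate 2 was 3.09-fold above Het replicate 1. Its type II partner Krt71 stood at -0.175 and 0.56 in Het and at 0.16 and -0.16 in cKO, and Krt73 at -0.36 and 0.60 in Het and -0.02 and 0.02 in cKO. Krt27 stood at -0.40 and 0.41 in Het and at 0.28 and -0.28 in cKO. In these 4 genes the Het arrays were the lowest and the highest of the 4, with cKO between them.

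The differences between the groups were accordingly small beside their errors. They were -0.22 ± 0.63 for Krt25, -0.19 ± 0.31 for Krt71, -0.12 ± 0.36 for Krt73 and -0.01 ± 0.37 for Krt27, all with overlapping groups. Without Het replicate 2 the difference of Krt25 was 0.59, and without Het replicate 1 it was -1.03. Krt28 was lowest in Het replicate 1, at -0.39, and at 0.12, -0.09 and 0.09 in the other arrays (difference 0.14 ± 0.21). Krt26 and Krt72 of the same sheath and the pseudogene Krt74 ranged by less than 0.1, although Krt26 lies between Krt25 and Krt27 on chromosome 11. These 3 genes under 0.1 were 37.5% of the class, against 36.0% of all genes, and the other 5 varied strongly between the Het arrays.

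**Figure D2:**
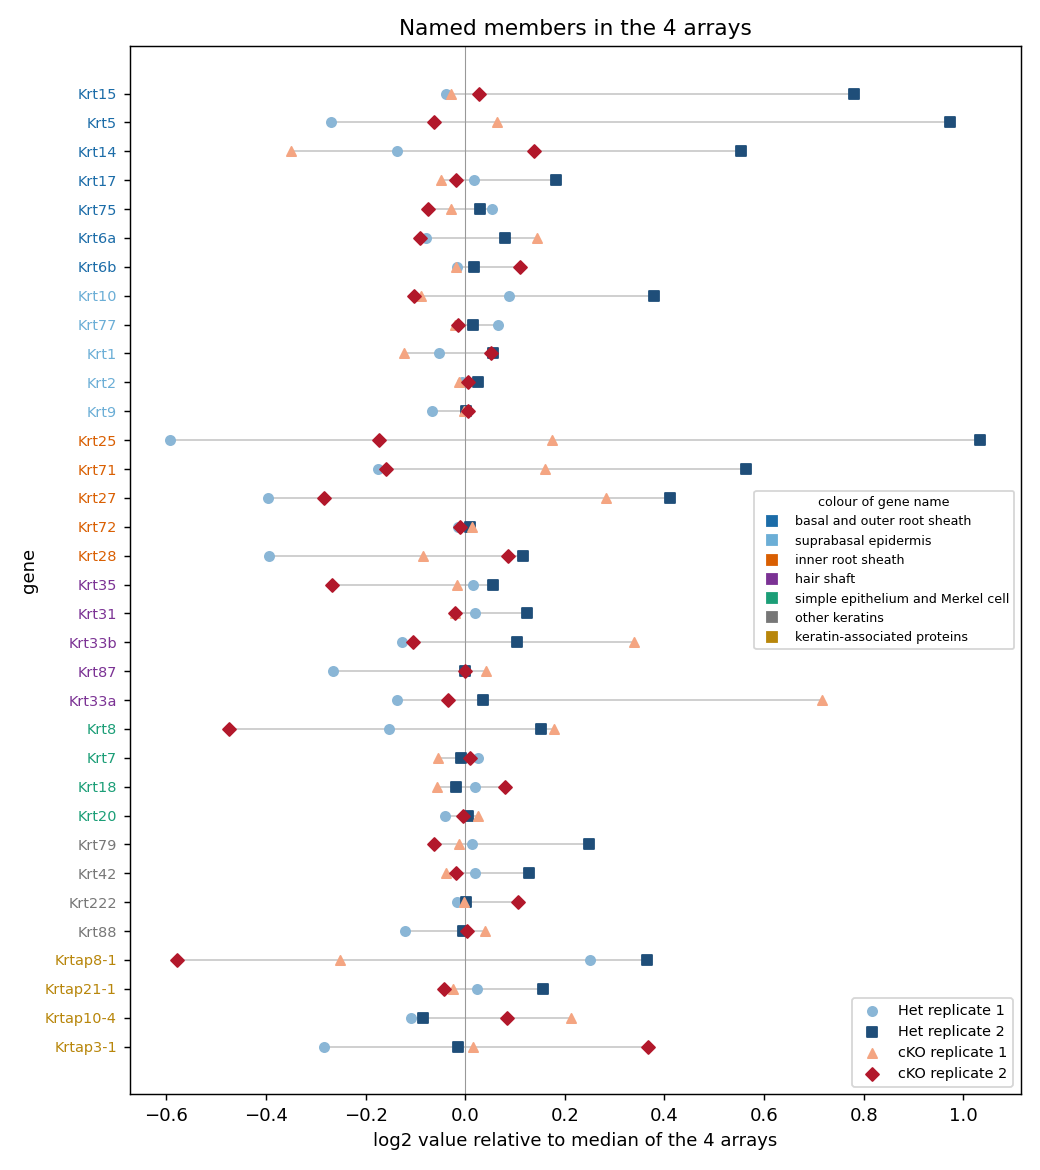
Log2 values relative to the median of the 4 arrays (x axis) of 34 members (y axis), with 1 symbol per array and a grey line over the range; names are coloured by class. Het replicate 2 stands apart at the right for Krt5, Krt15 and Krt25, cKO replicate 1 for Krt33a, and both cKO arrays lie left of both Het arrays for Krtap8-1.

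Hair shaft keratins (13 genes) had medians between -0.0005 and 0.006 in the 4 arrays. Het replicate 2 was above Het replicate 1 for 8 of the 13, against 10073 of 19938 genes, with a median difference of 0.03. It was the highest of the 4 arrays for 2 of the 13. Krt81, Krt83 and Krt85 had no probe set naming 1 gene. Krt33a, a type I hair keratin, stood highest in cKO replicate 1, at 0.72, against -0.14 and 0.04 in Het and -0.04 in cKO replicate 2. Its close relative Krt33b followed the same order in cKO, at 0.34 and -0.10, with -0.13 and 0.10 in Het. The 2 genes are similar in sequence, so how far their probe sets measure separate transcripts was not tested. Their differences were 0.39 ± 0.29 and 0.13 ± 0.19 with overlapping groups, and without cKO replicate 1 they were 0.02 and -0.09. The difference of Krt33a thus came mostly from cKO replicate 1.

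Krt35, one of the first hair keratins made above the matrix, stood at 0.02 and 0.06 in Het and at -0.02 and -0.27 in cKO, a difference of -0.18 ± 0.10 that came from cKO replicate 2. Without that array it was -0.05. Krt31 stood at 0.02 and 0.12 in Het and at -0.02 in both cKO arrays, a difference of -0.09 ± 0.05, and at -0.04 without Het replicate 2. Krt87 was lowest in Het replicate 1, at -0.27, and between -0.0003 and 0.04 in the other arrays, a difference of 0.15 ± 0.11 (0.02 without Het replicate 1). Of the 13 genes, 10 had a difference above 0 and 3 below, against 10420 of 19938 genes above 0. The median was 0.02, and the gene at the median, Krt84, differed by 0.02 ± 0.04. The groups did not overlap in 3 of the 13 genes, higher in cKO, and in 2 of the 13, lower in cKO, close to the 17.8% and 15.6% of all genes.

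Among the 5 keratins of simple epithelia and Merkel cells, Krt8 varied most. It stood at -0.15 and 0.15 in Het and at 0.18 and -0.47 in cKO, so that cKO replicate 1 was 1.57-fold above cKO replicate 2 (difference between the groups -0.15 ± 0.27). Its partner Krt18 ranged only from -0.06 to 0.08, and the Merkel cell keratin Krt20 from -0.04 to 0.02. Merkel cells also express Sox2, but the sort required integrin alpha 9 as well, and whether they carry it was not examined. Their defining factor Atoh1 ranged from -0.09 to 0.03 and the Merkel cell factor Isl1 from -0.01 to 0.01, and their part in the values of Krt8 was not tested. The ductal keratin Krt7 differed by -0.03 ± 0.04. Of the 13 remaining keratins, Krt79, which marks the upper follicle and sebaceous duct, stood at 0.01 and 0.25 in Het and at -0.01 and -0.06 in cKO (difference -0.17 ± 0.10), and 8 of the 13 were highest in Het replicate 2. The others had differences between -0.10 (Krt42) and 0.08 (Krt88), with Krt222 at 0.06.

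Krt33a and Krt8 were the 2 members at least 1.5-fold higher in cKO replicate 1 than in cKO replicate 2, against 1.63% of all genes, and 0 members were that much higher in cKO replicate 2, against 0.547%. The 7 keratins past 1.5-fold between the Het arrays all differed less between the cKO arrays. Replicate 2 minus replicate 1 of cKO was -0.13 for Krt5, 0.06 for Krt15, -0.35 for Krt25, -0.32 for Krt71 and 0.04 for Krt73. Krt14, at 0.49 against 0.69 in Het, was higher in replicate 2 in both groups. Krt27, at -0.57 against 0.81 in Het, was higher in replicate 1 of cKO. These genes were picked by their Het difference, so a smaller cKO difference could follow from that choice alone.

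**Figure D3:**
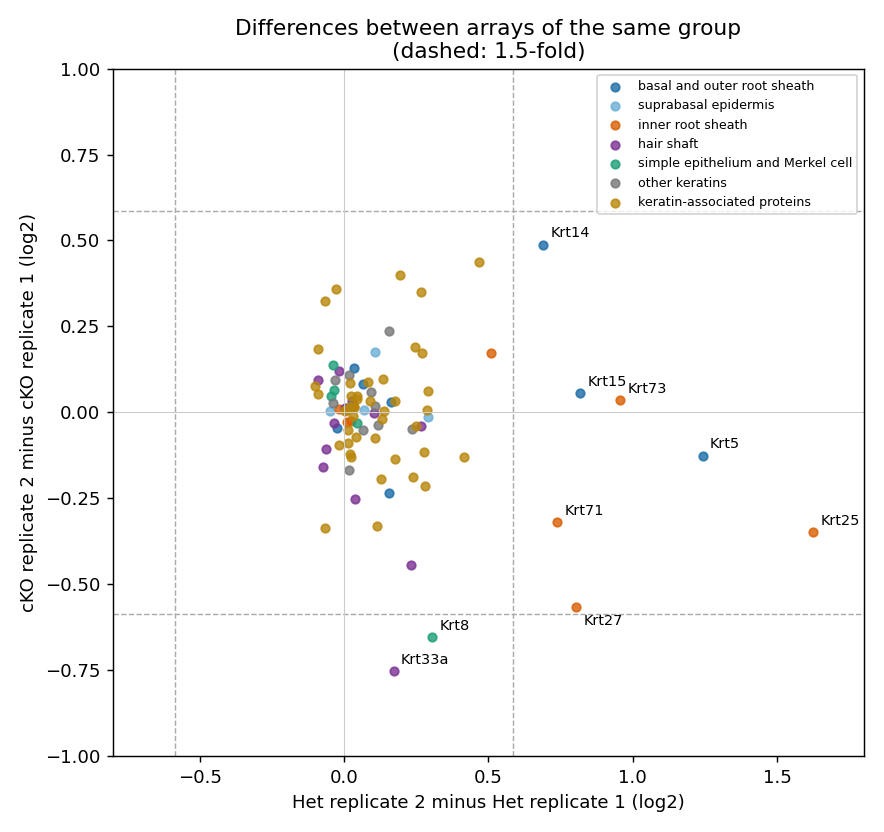
Difference between the Het arrays (x axis) and between the cKO arrays (y axis), replicate 2 minus replicate 1 on the log2 scale, with 1 point per member coloured by class and dashed lines at 1.5-fold. The 7 keratins right of the dashed line are of the basal and inner root sheath classes, and Krt8 and Krt33a lie below the lower line.

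Keratin-associated proteins (44 genes) mostly moved in the same direction within Het. Of the 44, 37 were higher in Het replicate 2 than in Het replicate 1, against 10073 of 19938 genes. The median difference was 0.06, against 0.001 over all genes. Het replicate 1 was the lowest array for 26 of them. None of the 44 reached 1.5-fold between the arrays of a group. Of all genes, 0.241% were that much higher and 1.22% lower in Het replicate 2 than in Het replicate 1. In cKO, 0.547% were that much higher in replicate 2 and 1.63% in replicate 1. The median range of the class over the 4 arrays was 0.18, against 0.14 for all genes. Many of these genes are near-identical copies, and a further 15 probe sets named several genes with a member among them and were left out. Of the 15, 12 were higher in Het replicate 2 than in Het replicate 1. They are not separate from each other or from the 44, since some name the same genes and others name members of the 44. For 4 of these probe sets, which named Krtap2-4 with Gm11562 and Gm11938, the Het medians were -0.25 and 0.17 and the cKO medians -0.04 and 0.04.

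Krtap8-1, which encodes a small hair protein rich in glycine and tyrosine, was lower in both cKO arrays than in both Het arrays. It stood at 0.25 and 0.37 in Het and at -0.25 and -0.58 in cKO. The SD was 0.08 in Het and 0.23 in cKO, and the difference was -0.72 ± 0.14, or 1.65-fold lower. It did not pass limma's test over all genes (adjusted p = 0.897), and without 1 array it lay between -0.89 and -0.56. Its neighbour Krtap7-1 stood at 0.03 and -0.03 in Het and at 0.08 and -0.26 in cKO, a difference of -0.09 ± 0.13 with overlapping groups, and Krtap21-1 of the same cluster differed by -0.12 ± 0.06 with separate groups.

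In the other direction, Krtap10-4 stood at -0.11 and -0.08 in Het and at 0.21 and 0.08 in cKO, a difference of 0.25 ± 0.06 (adjusted p = 0.934, limma). Krtap3-1 stood at -0.28 and -0.02 in Het and at 0.02 and 0.37 in cKO, a difference of 0.34 ± 0.17 with groups that did not overlap. Without Het replicate 1 it was 0.21, and without cKO replicate 2 it was 0.17. Over the class, 22 genes had a difference above 0 and 22 below, with a median of -0.0015.

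Of the 96 members, 0 had an adjusted p under 0.05 in limma, against 0.0% of all genes. At an unadjusted p under 0.05 there were 2 members, Krtap8-1 and Krtap10-4, against 5.28% of all genes. Among the members, 47 had a difference above 0 and 49 below, with a median of -0.01, and the median over all genes was 0.003. The groups did not overlap in 15 members that were higher in cKO (15.6%) and 12 that were lower (12.5%), against 17.8% and 15.6% of all genes. At 1.5-fold or more with separate groups there was 1 lower member, Krtap8-1, against 0.527% of all genes, and 0 higher, against 0.12%. The members' shares without overlap were thus near or below those of all genes, and the count past 1.5-fold rested on 1 gene.

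By class, the median difference, cKO minus Het, was -0.11 for basal and outer root sheath keratins, -0.04 for suprabasal, -0.01 for inner root sheath and 0.02 for hair shaft keratins. It was 0.01 for simple epithelial and -0.01 for the other keratins. The basal value rested on 1 array: without Het replicate 2 it was 0.04. The inner root sheath value was 0.27 without Het replicate 2 and -0.26 without Het replicate 1. Without Het replicate 1, Krt5, Krt14, Krt15, Krt25, Krt73 and Krtap8-1 were past 1.5-fold with separate groups, all lower in cKO. Without Het replicate 2, Krtap8-1 was past it as lower and Krt25 as higher. With 1 array left in a group, separate groups means only that this array lay outside the other 2. The share of all genes past this limit was not counted with an array left out, so no baseline stands beside these members. Range alone did not set the members apart: 2 of the 96, Krt5 and Krt25, ranged by at least 1 over the 4 arrays, against 1.04% of all genes.

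**Figure D4:**
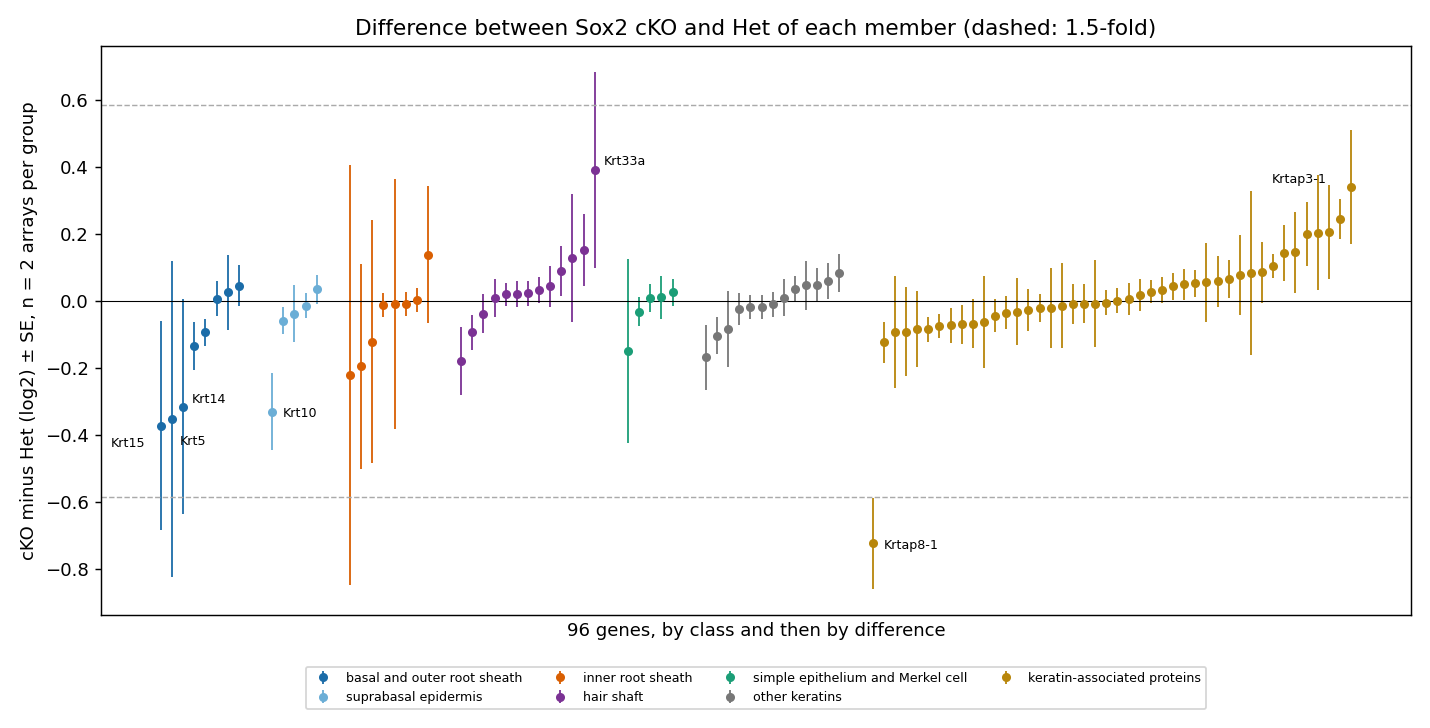
Difference between cKO and Het on the log2 scale (y axis), with its standard error from limma (n = 2 arrays per group), for the 96 members ordered by class and size (x axis); dashed lines mark 1.5-fold. Krtap8-1, at -0.72, lies beyond a dashed line, and the basal and inner root sheath keratins have the longest error bars.

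Keratinocyte genes other than keratins were mostly highest in Het replicate 2. Of 18 measured keratinocyte markers of 19 listed, 18 were higher in Het replicate 2 than in Het replicate 1 and 14 were highest there, with medians of -0.07 and 0.10 in Het and -0.02 and 0.02 in cKO. Dsp, the desmosomal plaque gene desmoplakin, stood at -0.55 and 0.58 in Het and at 0.07 and -0.07 in cKO, and Trp63, the transcription factor p63 of basal keratinocytes, at -0.10 and 0.43 in Het and -0.01 and 0.01 in cKO. Markers of the hair matrix, shaft and inner root sheath were mixed: 9 of 13 were higher in Het replicate 2 than in Het replicate 1, but 5 were highest there, 3 in Het replicate 1, 1 in cKO replicate 1 and 4 in cKO replicate 2. Tchh, the gene of trichohyalin in the inner root sheath, had the largest excess in Het replicate 2, at -0.23 and 0.76 in Het and 0.23 and -0.63 in cKO. Msx2, a transcription factor of the hair matrix, was highest in Het replicate 1, at 0.22 and -0.05 in Het and 0.05 and -0.11 in cKO, and Hoxc13, Tgm3 and Dsg4 were also lower in Het replicate 2 than in Het replicate 1. Between the groups, 12 of the 18 keratinocyte markers and 6 of the 13 hair markers were lower in cKO, against 9512 of 19938 genes. The median differences of the 2 lists were -0.05 and 0.002.

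Melanocyte markers followed the same order within Het, with 7 of 7 higher in Het replicate 2 and medians of -0.09 and 0.16. Within cKO 7 of 7 were also higher in replicate 2, with medians of -0.05 and 0.05. So were 12 of 18 keratinocyte markers and 55 of the 96 members, against 10554 of 19938 genes. Of 17 dermal papilla markers, 5 were higher in Het replicate 2 than in Het replicate 1, with medians of 0.14 and -0.06. Within cKO 8 of the 17 were higher in replicate 2. Sox2, the targeted gene, was at 0.96 and 0.87 in Het and at -0.87 and -0.94 in cKO; where its probe set lies relative to the deleted part was not examined. Its adjusted p was 0.345 (limma). The part of epithelial, melanocyte or papilla RNA in the keratin values was not tested.

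**Figure D5:**
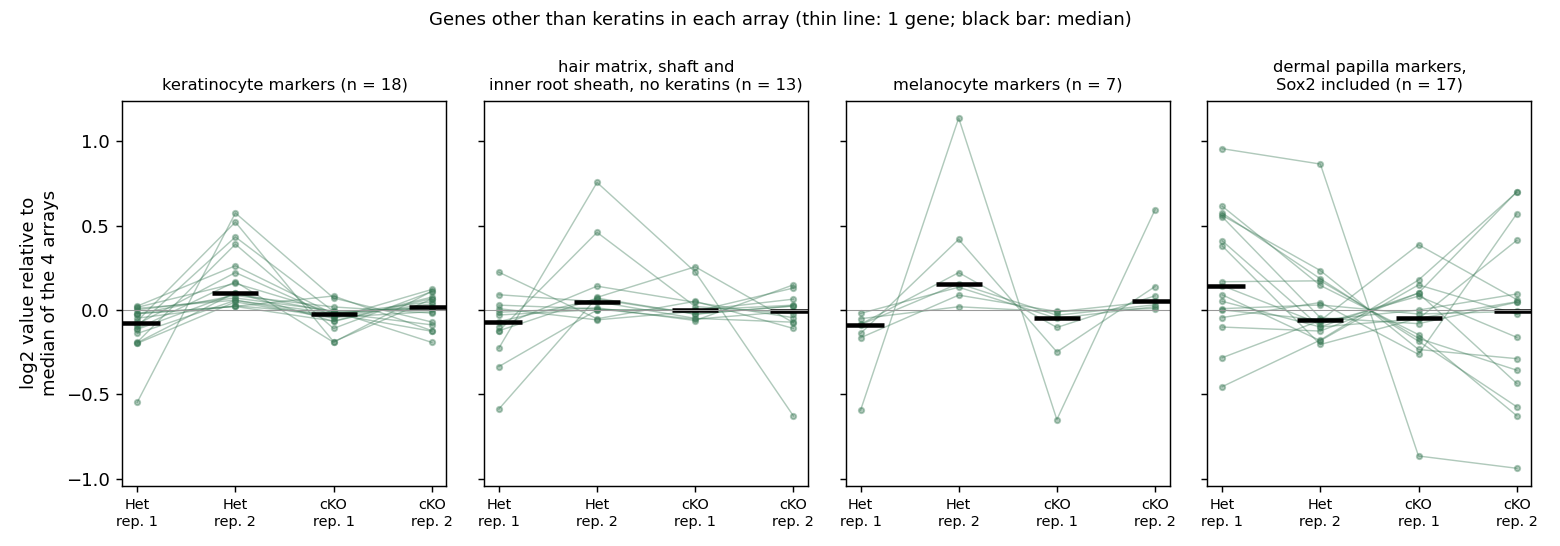
Log2 values relative to the median of the 4 arrays (y axis) in each array (x axis) for markers of 4 cell types, with a thin line per gene and a black bar at the median. The 18 keratinocyte and 7 melanocyte markers are all higher in Het replicate 2 than in Het replicate 1, as are 5 of 17 dermal papilla markers. Within cKO, 12 of the 18, 7 of the 7 and 8 of the 17 are higher in replicate 2, against 10554 of 19938 genes.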

How the data were processed

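RNA from sorted cells of 2 Het and 2 cKO samples was amplified and hybridised to Affymetrix arrays. Per the submitters' processing notes the authors ran RMA, and its deposited output was read as log2, RMA's usual scale, since no base is named. The RMA version, the genome build and how probe sets were centred are not stated in what was used here. The median of the 4 arrays was 0 (within 1e-06) in all 28853 probe sets, so no filter on low values could be made and all 96 members were tested. Array medians lay between -0.00366 and 0.0043, and the number of arrays limits the precision.

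Probe sets naming 1 gene (21789) were averaged per gene; 1621 named several and 5443 none. The platform annotation gave the names, and a GRCm38.p6 gene table changed 0 of them. All 19938 genes were fitted in R 4.3.3 with limma 3.58.1 (lmFit, eBayes, group as the only term, two-sided, Benjamini-Hochberg over all genes, threshold 0.05), after a test on simulated data. The arrays are labelled biological replicates. An exact permutation test of 2 against 2 arrays cannot go below 0.333 and was not run.

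Members named were a fixed list of main keratins, and in each class the 2 highest and 2 lowest differences and the widest range, 34 in all. Krt16, Krt26, Krt73 and Krtap7-1, and the marker genes described singly, were chosen after their values were seen. Members, classes and marker lists were chosen with earlier results of these data known. Keratin-associated proteins were to be split by protein composition, which was not done because no protein table was used here. Alternatives were each array left out, a replicate block, array centring, gene medians, probe sets naming several genes, other moderation, probe sets as units, a filter on SD and a 2-fold threshold. Python 3.11.15, pandas 2.3.3 and matplotlib 3.10.9 were used for counts and figures.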

Additional observations from a re-analysis of the deposited data

How the results depend on the processing

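Of all genes and of the members, 0 passed under 12 of 13 alternatives. With only the genes whose SD over the 4 arrays was at or above the median, 48 members among them, 116 genes and 1 member (Krtap8-1) passed limma's test; the prior degrees of freedom rose from 1.52 to 66.5, and this filter uses the values tested. With the threshold at 2-fold, 0 members were past it with separate groups. With 1 array left out, 1 to 6 members were past 1.5-fold; without cKO replicate 2 the 1 member was Krt33a.

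Class medians ranged, with 1 array left out, from -0.15 to 0.0388 (basal and outer root sheath), 0.0146 to 0.0227 (hair shaft), -0.26 to 0.27 (inner root sheath), -0.0288 to 0.0589 (keratin-associated proteins), -0.0291 to 0.01 (other keratins), -0.0145 to 0.012 (simple epithelium and Merkel cell) and -0.0601 to 0.0023 (suprabasal epidermis). With arrays centred on their medians the hair shaft value was 0.0196. With 1 array left out, 20 of 38 named members changed sign. Their ranges were -1.03 to 0.59 for Krt25, -0.97 to 0.27 for Krt5, -0.78 to 0.0379 for Krt15, -0.66 to 0.0309 for Krt14, -0.60 to 0.36 for Krt73, -0.56 to 0.17 for Krt71, -0.47 to 0.18 for Krt8, -0.41 to 0.40 for Krt27, -0.26 to 0.0768 for Krtap7-1 and -0.12 to 0.0502 for Krt1. For the others they were -0.12 to 0.39 for Krt28, -0.0935 to 0.35 for Krt33b, -0.0904 to 0.14 for Krt6a, -0.0634 to 0.0014 for Krt7, -0.0566 to 0.0803 for Krt18, -0.034 to 0.0487 for Krt16, -0.0287 to 0.0023 for Krt2, -0.0188 to 0.11 for Krt6b, -0.0168 to 0.0018 for Krt26 and -0.0085 to 0.0152 for Krt72. Krt72 was also -0.0003 with centred arrays. The causes were not tested.

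Replicate 2 minus replicate 1 correlated at 0.304 between Het and cKO over 19938 genes, which are not independent, and nothing in the labels ties the numbers. With the replicate number as a block, 0 members and 0 genes passed and the group differences stayed as they were. No expression level, and so no detection limit, can be read from centred values, and a fit on 2 against 2 arrays does not show that changes of the sizes given are absent.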
